A study of Mus musculus with 18 samples.

Results

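The sterol arm of cholesterol synthesis, which carries squalene to cholesterol, was examined in RNA-seq of mouse retinal pigment epithelium (RPE) through 9 of its genes: *Fdft1*, *Sqle*, *Lss*, *Cyp51*, *Msmo1*, *Nsdhl*, *Hsd17b7*, *Sc5d* and *Dhcr7*. They were taken by gene symbol from a table of 52636 genes, and each symbol matched 1 gene. The mice were C57BL/6, and RPE was collected at postnatal day 14, with 3 libraries in each of 6 groups, 18 in all. Uninjected mice received no vector, and the other groups received an AAV8 vector under the retina on the day of birth. The *Best1* promoter, which is active in RPE, drove each vector's product, so cells without an active *Best1* promoter were not meant to express it. The products were GFP, nSREBP2 (the nuclear, transcriptionally active fragment of SREBP2), a control hairpin (ctrl sh, directed at bacterial LacZ) and a pair of hairpins against *Lrp2* (sh1 and sh2). Each library came from a separate mouse, and replicate numbers are not said to pair mice across groups.

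Cholesterol is made from acetyl-CoA through mevalonate and farnesyl diphosphate, the branch point from which the sterol arm departs. From there, squalene is formed, oxidised and folded into lanosterol, the first sterol, which then loses its extra methyl groups and has its double bonds moved and reduced. Transcription of these enzymes is under the control of SREBP2, which is held in the endoplasmic reticulum by SCAP and INSIG proteins while sterols are plentiful and is cut by site proteases in the Golgi when they fall. In RPE, cholesterol comes from local synthesis, from the outer segments of photoreceptors that these cells engulf, and from lipoproteins of the blood. *Lrp2* encodes megalin, a large receptor that takes up proteins and lipid carriers by endocytosis.

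Levels are given as CPM (counts scaled to the size of each library), normalized across the 18 libraries, with the replicates in numerical order. Between 8921885 and 13696934 counts were recorded per library. The uninjected group had the least, 8921885 to 10232105. No gene of the 9 fell under 81 counts in a library, so each passed the filter on low counts in every comparison. All 9 are protein coding. The exons of *Fdft1*, *Lss* and *Cyp51* overlap those of *Ctsb*, *4930483K19Rik* and *Akap9* on the opposite strand by 774, 381 and 166 bases, and since the use of strand in counting was not stated, a part of their counts is uncertain. *Nsdhl* lies on the X chromosome. Y-linked genes marked 6 mice as male: all 3 of the nSREBP2 group, replicate 3 of the uninjected group and replicates 2 and 3 of the *Lrp2* sh2 group. Sex and vector therefore cannot be told apart in the direct comparison of nSREBP2 with GFP, whose mice were all female.

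The manipulated genes were read first, as a check of the labels. *Srebf2* stood at 233, 208 and 208 CPM in the nSREBP2 libraries and at 83.5, 113 and 107 CPM in the GFP libraries. No other group exceeded the lowest of the nSREBP2 libraries: *Srebf2* was 88.2, 114 and 96.0 CPM in uninjected, 121, 114 and 108 CPM in ctrl sh, 102, 119.6 and 115 CPM in *Lrp2* sh1 and 108, 102 and 104 CPM in *Lrp2* sh2. It rose by a log2 fold change of 1.10 between GFP and nSREBP2 (SE 0.11, edgeR adjusted P 0.000121), and transcripts of the vector and of the mouse's own gene cannot be told apart in a count per gene. *Lrp2*, which lies outside the rule for naming genes and is given to check the hairpins, was 166, 87.7 and 100.2 CPM with ctrl sh, 29.7, 42.8 and 38.1 CPM with sh1 and 37.7, 34.6 and 43.6 CPM with sh2. Neither hairpin's libraries reached those of ctrl sh, and *Lrp2* fell by 1.68 with sh1 and by 1.60 with sh2 on the log2 scale (edgeR adjusted P 0.00328 and 0.00109). Its other levels were 55.9, 139 and 150.4 CPM in uninjected, 176, 159.7 and 87.9 CPM in GFP and 37.7, 29.95 and 25.1 CPM in nSREBP2, where it fell by 2.18 on the log2 scale against GFP (adjusted P 0.000233).

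The tissue label was checked against RPE markers. *Rpe65* was 375, 955 and 1129 CPM in the uninjected libraries, and it was nearly absent from most injected ones. It measured 2.31, 1.06 and 1.58 CPM in GFP, 3.72, 2.45 and 3.18 CPM in nSREBP2, 97.0, 2.58 and 1.77 CPM in ctrl sh, 3.56, 44.0 and 5.18 CPM in sh1 and 3.50, 5.46 and 15.6 CPM in sh2. Among the injected libraries, replicate 1 of ctrl sh and replicate 2 of sh1 held the highest *Rpe65*. The pigment gene *Pmel*, the most abundant of the 10 RPE markers on average, was present throughout and lay between 1889 and 3209 CPM over all 18 libraries. In bulk tissue, fewer RPE cells and less of these transcripts per cell cannot be told apart. Markers of other cells were abundant too. *Dct*, on the melanocyte list, lay between 1789 and 3707 CPM. Fibroblast markers summed to between 18501 and 85271 CPM, and RPE markers to between 4165 and 11861 CPM. In replicate 1 of GFP, *Pmel* (2595 CPM) and *Tyrp1* (2247 CPM) made up most of the RPE sum (5360 CPM). Within the uninjected group, replicate 1 stood apart, with a summed RPE marker level of 6004 CPM against 9949 and 11861 CPM in replicates 2 and 3, and it was the lowest of its group for 8 of the 9 sterol genes.

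The comparison of nSREBP2 with GFP asks how the sterol arm responds when active SREBP2 is supplied to RPE. The answer was the same in direction for every enzyme from squalene synthase to the last reductase. At an adjusted P under 0.05 in edgeR, 9 of the 9 genes rose, beside 12.6% of all 17927 genes tested that were called higher. With the added demand of a log2 fold change above 1, the count was again 9, beside 4.71% of the genes tested. The median log2 fold change of the 9 was 1.65, and that of all genes tested was -0.02.

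*Fdft1* encodes squalene synthase, which joins a pair of farnesyl diphosphate molecules and commits them to sterols. Its level was 15.1, 18.3 and 15.7 CPM in the GFP libraries and 67.0, 55.8 and 56.2 CPM in the nSREBP2 libraries. The groups were well apart, with replicate 1 the highest of the nSREBP2 libraries, and *Fdft1* rose 3.65-fold, a log2 fold change of 1.87 (95% interval 1.63 to 2.11, adjusted P 5.38e-06). This size depended on the control: against the uninjected libraries, which held 19.8, 38.3 and 26.4 CPM, the log2 fold change was 1.07 (adjusted P 0.00476, where the 14 alternatives ran from 6.66e-40 to that value). *Sqle* encodes squalene epoxidase, which adds the oxygen that later becomes the hydroxyl group of cholesterol. GFP libraries held 29.1, 36.9 and 26.9 CPM of *Sqle*, and nSREBP2 libraries held 94.9, 82.7 and 82.5 CPM. Every nSREBP2 library exceeded every GFP library, and the log2 fold change was 1.49 (95% interval 1.24 to 1.75, adjusted P 2.70e-05). *Lss* encodes lanosterol synthase, which folds the oxidised chain into the ring system. With GFP, *Lss* was 15.9, 17.1 and 14.1 CPM, and with nSREBP2 it was 81.9, 68.0 and 66.8 CPM. The lowest nSREBP2 library held several times the level of the highest GFP library, and *Lss* had the second largest change of the 9, a log2 fold change of 2.21 (95% interval 1.97 to 2.45, adjusted P 1.83e-06).

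The methyl groups of lanosterol are removed by the next enzymes. *Cyp51* encodes the demethylase that acts first, a cytochrome P450. It measured 29.7, 31.7 and 37.6 CPM with GFP and 170.5, 128 and 128 CPM with nSREBP2. Replicate 1 was far above replicates 2 and 3, which were nearly equal, yet all were well above GFP, and the log2 fold change was 2.11 (95% interval 1.82 to 2.40, adjusted P 9.54e-06). The sterol oxidase that begins removal of the remaining methyl groups is encoded by *Msmo1*. Its GFP libraries held 24.6, 28.6 and 29.2 CPM and its nSREBP2 libraries 90.5, 70.4 and 74.9 CPM. No values overlapped, and the log2 fold change was 1.52 (95% interval 1.28 to 1.76, adjusted P 1.73e-05). *Nsdhl* encodes the dehydrogenase that then takes off the oxidised carbon. Counts of *Nsdhl* came to 11.03, 13.3 and 11.7 CPM with GFP and to 40.9, 33.7 and 36.0 CPM with nSREBP2. All nSREBP2 libraries lay above all GFP libraries, and the log2 fold change was 1.62 (95% interval 1.38 to 1.87, adjusted P 1.41e-05). The keto group left behind is reduced by the product of *Hsd17b7*, which closes each round of demethylation. *Hsd17b7* was 12.7, 14.1 and 15.6 CPM with GFP and 105, 79.9 and 84.1 CPM with nSREBP2. This was the largest change of the 9: *Hsd17b7* rose 6.38-fold, a log2 fold change of 2.67 (95% interval 2.40 to 2.95, adjusted P 1.48e-06).

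The last steps adjust the double bonds. *Sc5d* encodes the desaturase that places a new double bond in the ring. Its levels were 32.4, 33.7 and 31.1 CPM with GFP and 75.0, 67.3 and 68.0 CPM with nSREBP2. The values were tight within each group and did not overlap, and this was the smallest change of the 9, a log2 fold change of 1.12 (95% interval 0.96 to 1.28, adjusted P 1.24e-05). *Dhcr7* encodes the reductase that turns dehydrocholesterol into cholesterol, the enzyme lost in Smith-Lemli-Opitz syndrome. It was 16.2, 17.5 and 18.8 CPM with GFP and 58.9, 52.8 and 52.5 CPM with nSREBP2. Again no values overlapped, and the log2 fold change was 1.65 (95% interval 1.45 to 1.85, adjusted P 4.42e-06). The intervals of *Hsd17b7* and *Sc5d* did not overlap, and whether the 9 changes differ from each other was not tested.

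**Figure D1:**
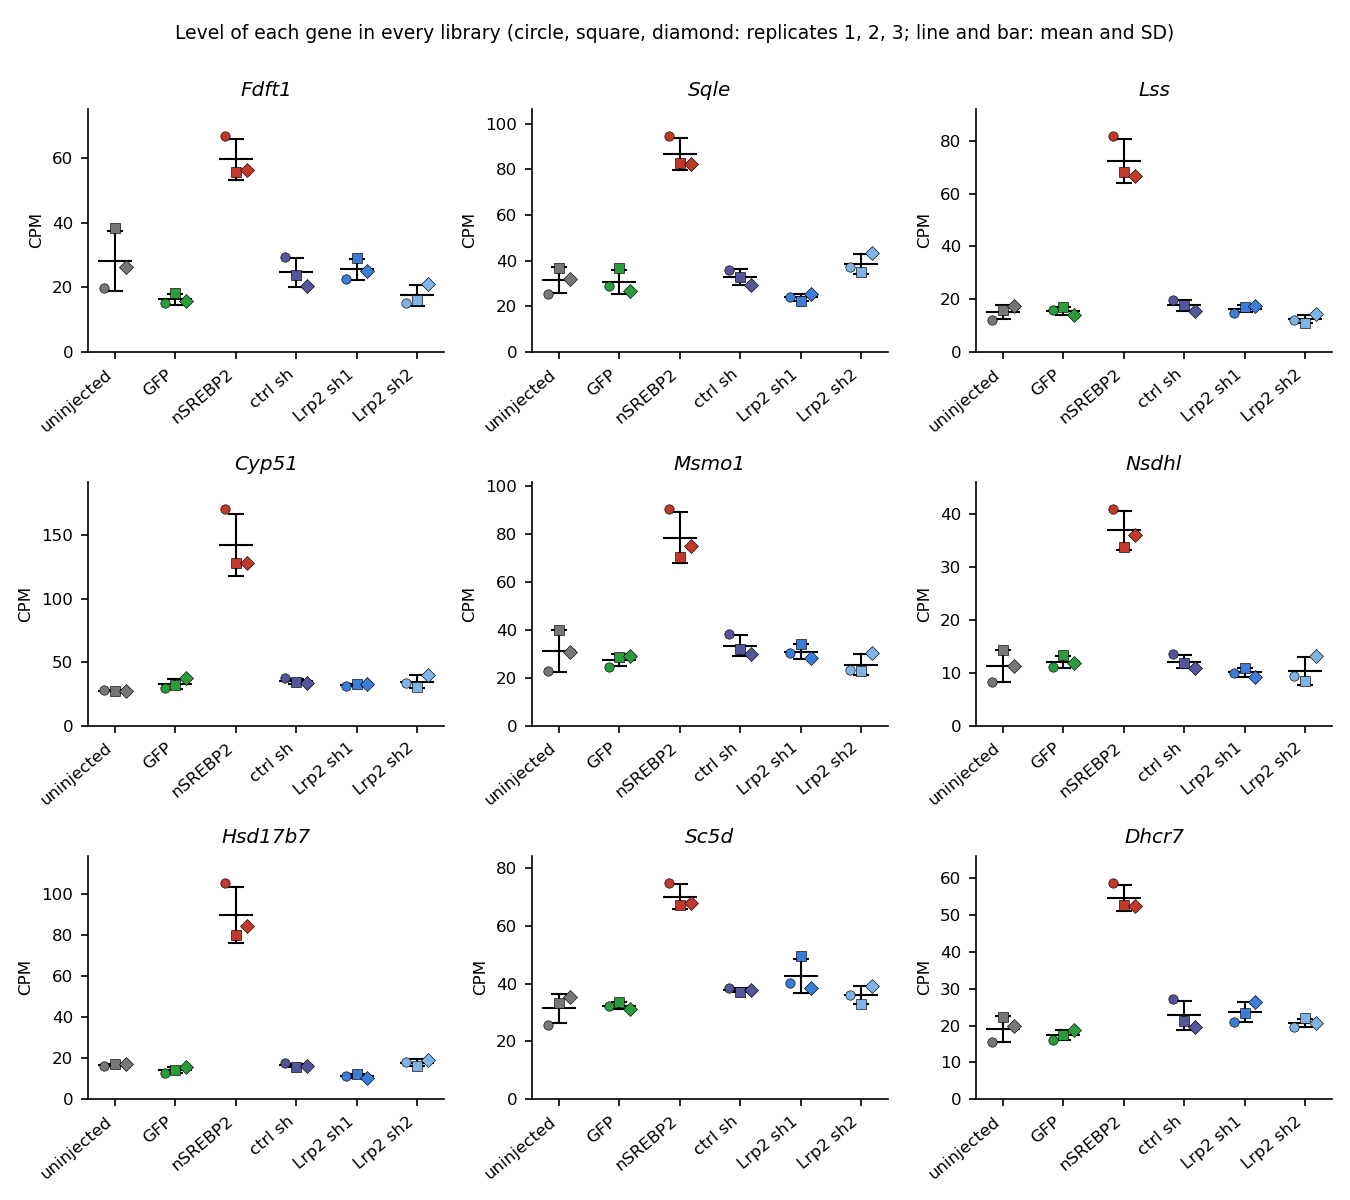
Level of each gene in CPM on the vertical axis for the 18 libraries, by group on the horizontal axis. Points are libraries (circle, square and diamond for replicates 1, 2 and 3), lines are means and bars are SDs (n = 3), and in each panel the nSREBP2 libraries lie above all 15 others.

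A further fit took in all 18 libraries and the sex of each mouse. There all 9 genes were again called higher in nSREBP2 than in GFP, with log2 fold changes from 0.999 for *Sc5d* to 2.67 for *Hsd17b7*. In that fit, the lowest adjusted P of the 9 for the difference of males from females was 0.923, for *Lss* (log2 difference 0.19). Only the uninjected and sh2 groups held both sexes, so that difference came from these groups. It cannot show the part of sex in the comparison of nSREBP2 with GFP. Leaving out each of the 6 libraries of the comparison in turn kept all 9 calls, and the log2 fold changes then stayed within 2.55 to 2.76 for *Hsd17b7* and 1.07 to 1.15 for *Sc5d*.

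Across the 6 groups, the nSREBP2 group had the highest mean of each of the 9 genes, and its lowest library exceeded the highest of the 15 other libraries every time. That ordering was not counted over other genes, and 12.6% of all genes were called higher than in GFP. The margin was widest for *Hsd17b7*, with a ratio of 4.15 between those libraries, and narrowest for *Sc5d*, with a ratio of 1.36. Among the 15 other libraries, the highest exceeded the lowest by 1.48-fold for *Cyp51* and by 2.53-fold for *Fdft1*, the ends of the range over the 9. Ranked by mean, most neighbouring groups below nSREBP2 shared part of their range. They did not for *Sqle* between GFP and sh1, for *Cyp51* between sh1 and uninjected, for *Sc5d* between sh1 and ctrl sh, or for *Hsd17b7* between ctrl sh, GFP and sh1. The lowest *Hsd17b7* was that of sh1, at 11.1, 12.5 and 10.3 CPM, and the lowest *Cyp51* was that of uninjected, at 28.3, 27.4 and 27.1 CPM.

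Levels were set against each other after division by the length of exon sequence of each gene. *Lss* was the lowest of the 9 per kilobase in every group, from 1.16 CPM per kilobase in sh2 to 6.70 in nSREBP2. Its rank depended on the division, since its exon length was 10787 bases and the next longest was 6144 bases, for *Msmo1*. Without the division, *Nsdhl* and not *Lss* had the lowest mean CPM in every group. *Cyp51* was the highest in GFP (7.47), nSREBP2 (32.2), ctrl sh (7.93) and sh2 (7.86), whereas *Sc5d* was the highest in sh1 (8.80) and *Fdft1* in uninjected (6.66), where its libraries overlapped those of *Sc5d*. The libraries of *Cyp51* also overlapped those of *Sc5d* in GFP, ctrl sh and sh2, but in nSREBP2 *Cyp51* stood clear of the next gene, as *Sc5d* did in sh1. *Hsd17b7* moved most in this order, from rank 8 in GFP (2.76) to rank 2 in nSREBP2 (17.6).

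**Figure D2:**
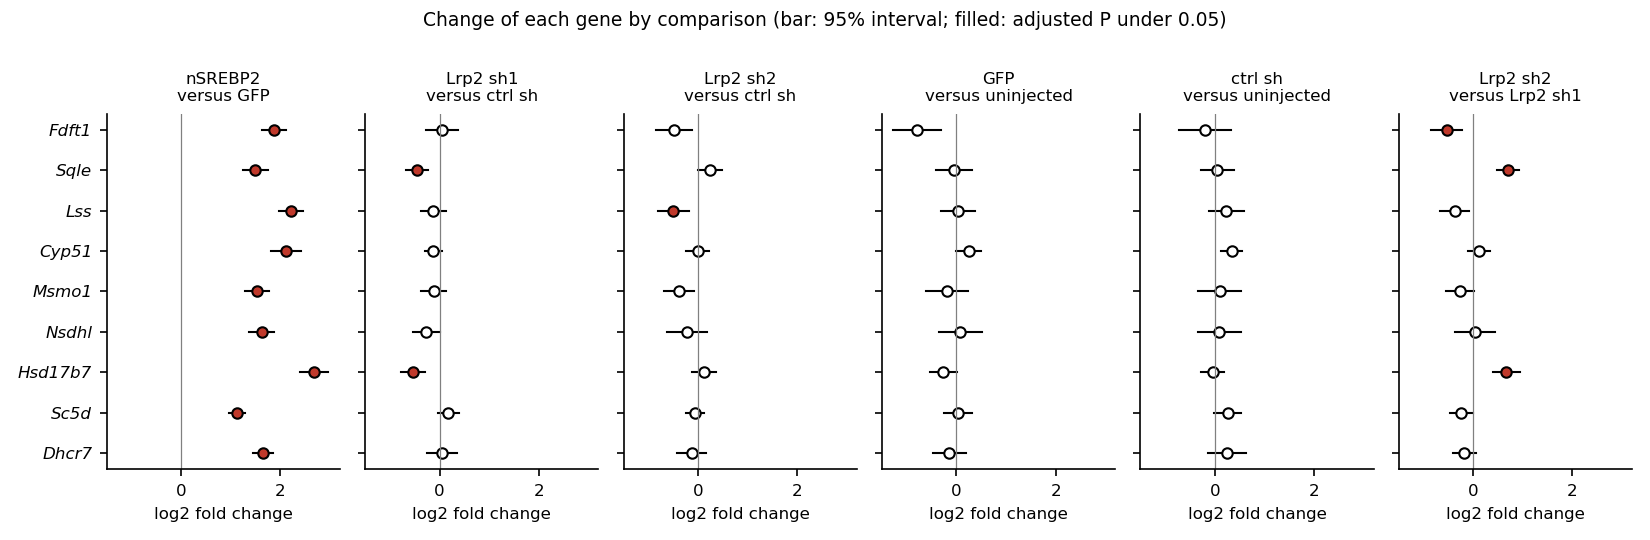
Log2 fold change of each gene on the horizontal axis, in the order of the pathway, for each comparison named above its panel. Points are edgeR estimates and bars are 95% intervals. Filled points have an adjusted P under 0.05, and all 9 are filled only for nSREBP2 versus GFP among the comparisons of a pair of groups.

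Enzymes of the sterol arm outside the 9 were read with the same fit. Of 4 reported here, edgeR called 3 higher in nSREBP2 than in GFP: the sterol reductase *Tm7sf2* (log2 fold change 2.68), the isomerase *Ebp* (1.64) and the tethering protein *Erg28* (0.54), whose adjusted P was 0.00539 and which was not called against uninjected mice (0.32, adjusted P 0.0985). *Tm7sf2* went from 7.35, 6.19 and 5.50 CPM to 50.3, 36.2 and 34.8 CPM. *Lbr*, which encodes a second enzyme with the activity of *Tm7sf2* and also anchors chromatin to the nuclear envelope, did not pass the test (log2 fold change 0.22, adjusted P 0.0982). Without replicate 3 of GFP it did (adjusted P 0.0266), as it did in the fit of all 18 libraries (0.0499) and against uninjected mice (0.0138).

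The mevalonate arm, which supplies farnesyl diphosphate, rose too: 7 of the 7 genes reported here were called higher. In order of the steps, the log2 fold changes were 1.85 for *Acat2*, 1.07 for *Hmgcs1*, 0.87 for *Mvk*, 1.44 for *Pmvk*, 2.36 for *Mvd*, 2.55 for *Idi1* and 2.18 for *Fdps*. Among 11 regulators of SREBP and genes of sterol uptake and transport, 5 were called higher: *Insig1* (log2 fold change 2.15), *Stard4* (1.93), *Srebf2* (1.10), *Npc2* (0.48) and *Npc1* (0.27). The call of *Npc1* was lost without replicate 1 of GFP (adjusted P 0.0519) or replicate 1 of nSREBP2 (adjusted P 0.0656). With a sex term, neither *Npc1* (0.110) nor *Npc2* (0.233) was called, and against uninjected mice *Npc2* was not (0.258), while *Mbtps1* was called higher (0.24, adjusted P 0.0472) and *Mylip* lower (-0.36, adjusted P 0.0439). Farnesyl diphosphate also feeds prenylation, dolichol, ubiquinone and heme A. Of 8 genes for these other uses, edgeR and DESeq2 both called 0, and 1 had an unadjusted p under 0.05, *Ggps1*, named after its value was seen (log2 fold change -0.18, adjusted P 0.110, and 0.0323 with a sex term).

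**Figure D3:**
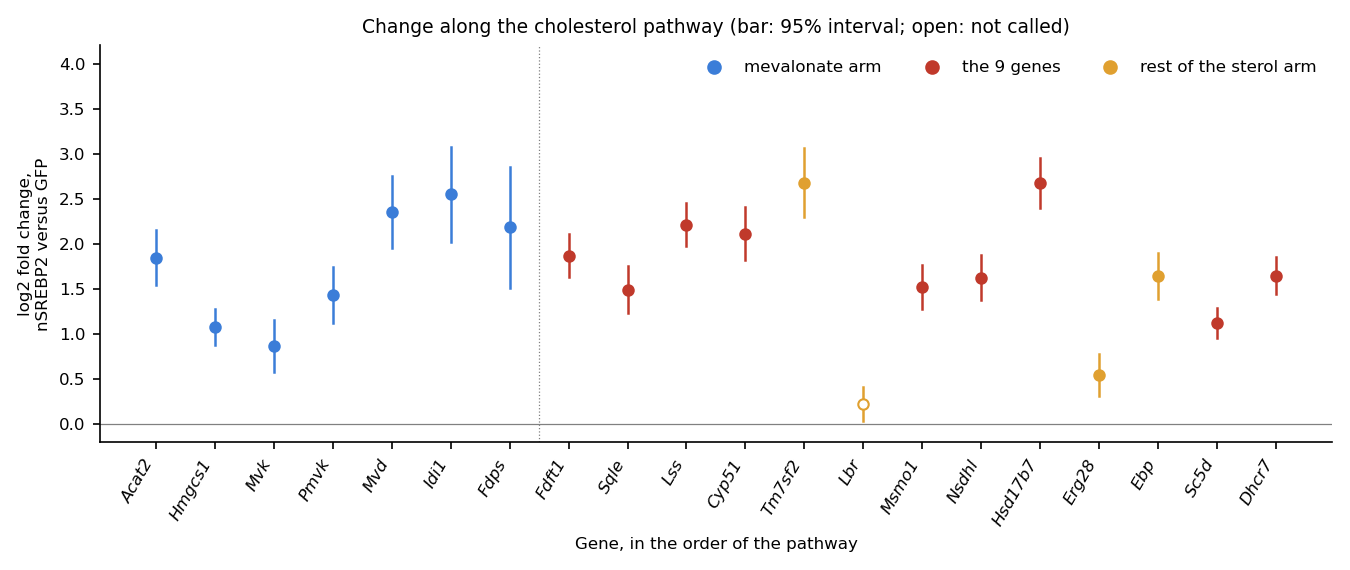
Log2 fold change, nSREBP2 versus GFP, on the vertical axis for genes of the mevalonate arm (blue), the 9 genes (red) and other genes of the sterol arm (orange), in the order of the pathway on the horizontal axis. Points are edgeR estimates with 95% intervals, filled where the adjusted P is under 0.05, and *Lbr* alone is open.

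Markers of cell types moved beside these changes. All 6 fibroblast markers were called higher in nSREBP2 than in GFP, with summed levels of 34499, 38868 and 43774 CPM in GFP and 85271, 71236 and 79142 CPM in nSREBP2, *Col1a1* being the most abundant. Without replicate 2 of GFP, 5 of these 6 were called. All 6 macrophage markers were called higher as well, from 243, 255 and 284 to 511, 483 and 479.6 CPM in sum, with *Csf1r* the most abundant. Of 6 endothelial markers, *Kdr*, *Plvap*, *Tek* and *Emcn* fell (3 called without replicate 2 of nSREBP2), a count of 4, and the sums were 1462, 1449 and 1874 CPM and 1208, 1189 and 1152 CPM, with *Cdh5* the most abundant in both groups.

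Rod markers varied between libraries of the same group. Their sum was 38.1, 111 and 311 CPM in GFP and 344, 288 and 242 CPM in nSREBP2. Of 10 rod markers, 1 was called higher, *Pde6b*. That count was 10 without replicate 3 of GFP, and 0 without replicate 2 of GFP, replicate 1 of nSREBP2 or replicate 2 of nSREBP2. *Cnga1* alone of the rod markers was at 0 in some library of the 18. Of 10 RPE markers, 2 were called higher (*Best1* and *Ttr*) and 3 lower (*Lrat*, *Rdh5* and *Otx2*), and their sums were 5360.2, 5669 and 5679.6 CPM in GFP and 6218, 5612 and 4697 CPM in nSREBP2. The higher count was 3 without replicate 1 of GFP and 1 without replicate 2 of GFP or replicate 1 of nSREBP2, and the lower count was 4 without replicate 3 of GFP. Melanocyte markers, with *Dct* the most abundant, had 2 of 6 lower (*Ednrb* and *Mlana*), and their sums were 3548, 3849 and 3926 CPM and 3869.8, 3437 and 3051 CPM. Leaving out a library kept that count at 2, and without replicate 3 of nSREBP2 a further 2 were called higher.

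The remaining marker lists had 0 genes called by edgeR and by DESeq2, with 1 gene of each list at an unadjusted p under 0.05. Leaving out a library gave 1 called gene in places: a myelin gene without replicate 3 of nSREBP2, a muscle gene without replicate 1 or 3 of GFP, and a blood gene without replicate 1 of GFP or of nSREBP2. Their sums in GFP and nSREBP2 were 606, 496 and 628 CPM and 522, 476 and 539.6 CPM for 7 markers of myelin and Schwann cells (*Pmp22* the most abundant). For 6 markers of muscle (*Des* the most abundant) they were 53.4, 54.999 and 115 CPM and 50.5, 57.0 and 68.6 CPM, and for 5 of blood (*Hbb-bs* the most abundant) 473, 652 and 603 CPM and 688, 491 and 440.3 CPM. The part of all these cell types in the rise of the sterol genes was not tested.

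The hairpins against *Lrp2* pose a separate question: does the sterol arm change when megalin transcripts are reduced? For sh1, set against ctrl sh, 2 of the 9 genes fell at an adjusted P under 0.05 in edgeR, beside 2.28% of 17801 genes tested that were called lower. No gene of the 9 was called higher, beside 544 of all genes tested. With uninjected mice as the control, which gave 2214 of 17788 genes higher, *Sc5d* was among them (log2 fold change 0.44, adjusted P 0.0444) and *Sqle* was not called (adjusted P 0.0639). Against ctrl sh, DESeq2 called the same 2 as edgeR, and at an unadjusted p under 0.05 the count was also 2, beside 3506 of the 17801 genes.

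The fallen genes were *Hsd17b7* and *Sqle*. *Hsd17b7* stood at 17.4, 15.6 and 16.3 CPM with ctrl sh and at 11.1, 12.5 and 10.3 CPM with sh1. The groups did not overlap, and *Hsd17b7* fell by 0.54 on the log2 scale (SE 0.11, adjusted P 0.0210). *Sqle*, at 36.2, 33.1 and 29.3 CPM with ctrl sh, was 24.2, 22.2 and 25.5 CPM with sh1. Again every sh1 library lay under every ctrl sh library, and *Sqle* fell by 0.46 on the log2 scale (SE 0.10, adjusted P 0.0295). Both calls were lost in some of the fits that left out a library. *Hsd17b7* lost its call without replicate 3 of ctrl sh (adjusted P 0.0647), replicate 1 of sh1 (0.0789) or replicate 3 of sh1 (0.0891). *Sqle* lost its call without replicate 2 of ctrl sh (adjusted P 0.0767) or without replicate 1, 2 or 3 of sh1 (adjusted P 0.0968, 0.123 and 0.0647). Over all fits that left out a library, the log2 fold changes stayed within -0.62 to -0.48 for *Hsd17b7* and -0.53 to -0.38 for *Sqle*. For the other 7 genes, log2 fold changes ran from -0.27 (*Nsdhl*, adjusted P 0.276) to 0.17 (*Sc5d*, adjusted P 0.365).

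Of the 7 mevalonate genes, edgeR and DESeq2 called 0 with sh1, and 3 had an unadjusted p under 0.05: *Hmgcs1* (log2 fold change -0.24, adjusted P 0.0519), *Idi1* (-0.47, adjusted P 0.132) and *Fdps* (-0.60, adjusted P 0.252). With a filter of at least 10 counts in every library, *Hmgcs1* was called lower (adjusted P 0.0451). *Srebf1*, which encodes the SREBP of fatty acid synthesis, was the only called gene among the 11 regulators and uptake genes. Its levels were 158, 155 and 153 CPM with ctrl sh and 212, 220.2 and 238 CPM with sh1, and it rose by a log2 fold change of 0.52 (adjusted P 0.00184), a call kept in each fit that left out a library. With uninjected mice as the control, *Npc1* (0.34, adjusted P 0.00860) and *Mbtps2* (0.44, adjusted P 0.0146) were called higher too.

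With sh2, set against ctrl sh, 1 of the 9 genes fell, beside 9.48% of 18089 genes tested that edgeR called lower. That gene was *Lss*. It measured 19.9, 17.95 and 15.7 CPM with ctrl sh and 12.1, 11.2 and 14.4 CPM with sh2. The highest sh2 library lay below the lowest ctrl sh library, and *Lss* fell by 0.50 on the log2 scale (SE 0.14, adjusted P 0.0335). The call was lost without replicate 1 of ctrl sh (adjusted P 0.0934), replicate 2 of ctrl sh (0.0891), replicate 1 of sh2 (0.0831) or replicate 2 of sh2 (0.113). With uninjected mice as the control it was absent too, at a log2 fold change of -0.27 (adjusted P 0.281).

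*Fdft1* and *Msmo1* came next in adjusted P without passing. *Fdft1* was 29.6, 24.0 and 20.5 CPM with ctrl sh and 15.3, 16.2 and 21.1 CPM with sh2, where replicate 3 entered the range of ctrl sh (log2 fold change -0.48, adjusted P 0.0691). *Msmo1* was 38.3, 32.2 and 29.9 CPM with ctrl sh and 23.2, 22.9 and 30.6 CPM with sh2, and replicate 3 again lay within the range of ctrl sh (log2 fold change -0.38, adjusted P 0.0786). Without replicate 3 of sh2, both were called lower (adjusted P 0.0274 and 0.0203), which made 3 of the 9, beside 1378 of 18636 genes tested. The sh2 libraries were of mixed sex, replicate 1 from a female and replicates 2 and 3 from males.

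Of the 11 regulators and uptake genes, 5 were called lower with sh2: *Srebf1* (log2 fold change -0.59), *Insig1* (-0.54), *Scap* (-0.42), *Mbtps2* (-0.36) and *Mylip* (-0.33). *Mbtps2* lost its call without replicate 3 of ctrl sh (adjusted P 0.0669) or replicate 1 of sh2 (0.0508), and *Mylip* without replicate 3 of ctrl sh (0.0673) or replicate 2 of sh2 (0.0561). With uninjected mice as the control, the calls of *Srebf1* (log2 fold change -0.03, adjusted P 0.885), *Insig1* (-0.24, 0.103), *Scap* (-0.18, 0.270) and *Mbtps2* (0.05, 0.784) were absent, and with a sex term that of *Mylip* was (adjusted P 0.0549). Of the 7 mevalonate genes edgeR called 0, with 3 at an unadjusted p under 0.05, and DESeq2 called 1, *Hmgcs1* (log2 fold change -0.30, edgeR adjusted P 0.0516). Without replicate 3 of sh2, edgeR called it too (adjusted P 0.0121), as it did with no filter (0.0229) or with at least 10 counts in every library (0.0482), and in the fit of all 18 libraries it called *Fdps* lower (0.0441).

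Markers also differed between sh2 and ctrl sh. RPE markers summed to 8134, 6354 and 6526 CPM with ctrl sh and 4743, 4219 and 4165 CPM with sh2, and 5 of 10 were called lower, *Lrat*, *Mitf*, *Rdh5*, *Otx2* and *Ttr* (6 called without replicate 1 of sh2, 4 without replicate 2 or 3 of sh2). Rod markers summed to 42.8, 63.8 and 46.0 CPM and 418, 77.7 and 108 CPM, with 8 of 10 called higher, and that count was 6 without replicate 1 of ctrl sh, replicate 3 of ctrl sh or replicate 1 of sh2, and 9 without replicate 3 of sh2. Endothelial markers summed to 1635, 1653 and 1573 CPM and 1061, 1122 and 1065 CPM, with 5 of 6 lower: *Cdh5*, *Kdr*, *Tek*, *Plvap* and *Emcn* (6 without replicate 1 of ctrl sh, 4 without replicate 3 of ctrl sh). Blood markers (*Hbb-bs*, *Hbb-bt*, *Hba-a1*, *Hba-a2* and *Alas2*), all 5 lower, summed to 632, 804 and 702 CPM and 350.1, 431 and 438 CPM. With sh1, the sum of RPE markers was 5622, 5728 and 5898 CPM and that of rod markers 34.1, 37.7 and 64.9 CPM, with 1 of 10 RPE markers lower, *Mitf*, 2 lower without replicate 2 of ctrl sh and 2 others higher without replicate 1 of ctrl sh. Of 8 rod markers tested there, edgeR and DESeq2 called 0, and 0 had an unadjusted p under 0.05.

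The other marker lists were also read against ctrl sh. With sh2, 3 of 6 melanocyte markers (*Kit*, *Ednrb* and *Mlana*) and 2 of 7 myelin markers (*Mag* and *Pmp22*) were lower, and 2 of 6 fibroblast markers (*Col3a1* and *Lum*) and 1 of 6 macrophage markers (*Ptprc*) were higher. The melanocyte count was 2 without replicate 2 or 3 of ctrl sh or replicate 2 or 3 of sh2. The fibroblast count was 0 without replicate 3 of ctrl sh or replicate 2 of sh2, and 1 without replicate 1 or 3 of sh2. For macrophages it was 0 without replicate 2 or 3 of ctrl sh and 2 without replicate 3 of sh2. The myelin count was 1 without replicate 1 or 2 of ctrl sh or replicate 1 or 2 of sh2, 5 without replicate 3 of ctrl sh and 3 without replicate 3 of sh2. With sh1, 1 of 7 myelin markers (*Mag*), 1 of 6 macrophage markers (*Csf1r*) and 1 of 5 blood markers (*Hba-a2*) were lower. In each of these lists, edgeR called 0 when any sh1 library was left out. Leaving out replicate 1, 2 or 3 of ctrl sh gave 2, 0 and 3 for myelin, 1, 1 and 0 for macrophages and 3, 0 and 0 for blood. Myelin markers summed to 949.5, 1487 and 619.8 CPM in ctrl sh, with *Mbp* the most abundant in replicates 1 and 2. The part of these cells in the sterol genes was not tested.

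The hairpins share a target, and a direct comparison asks whether they act alike on the sterol arm. Against sh1, sh2 had 2 of the 9 genes higher and 1 lower in edgeR, beside 10.2% and 12.3% of 17975 genes tested. *Sqle* was 24.2, 22.2 and 25.5 CPM with sh1 and 37.3, 35.0 and 43.6 CPM with sh2, without overlap, a log2 fold change of 0.70 (SE 0.10, adjusted P 0.000875). *Hsd17b7* went from 11.1, 12.5 and 10.3 CPM to 18.1, 16.1 and 19.2 CPM, also without overlap, a log2 fold change of 0.66 (SE 0.12, adjusted P 0.00390). Both calls held in every fit that left out a library. *Fdft1* was lower with sh2: it went from 22.6, 29.1 and 24.9 CPM to 15.3, 16.2 and 21.1 CPM (log2 fold change -0.53, SE 0.14, adjusted P 0.0227). This call was lost without replicate 2 of sh1 (adjusted P 0.0955), replicate 3 of sh1 (0.0521), replicate 1 of sh2 (0.0697) or replicate 2 of sh2 (0.0782). Fits of all 18 libraries lost it as well, both without a sex term (adjusted P 0.0601) and with one (0.137). Without replicate 3 of sh2, *Lss* (adjusted P 0.0235) and *Msmo1* (0.0198) were called lower too, beside 1957 of 18541 genes tested. *Lrp2* itself had a log2 fold change of 0.08 between the hairpins (adjusted P 0.728), while *Srebf1* had one of -1.12 (adjusted P 3.21e-06). Of all 13 genes on the list of regulators and uptake genes, some not reported here, 6 were called lower and 1 higher. Leaving out a library gave 5 to 6 lower and 0 to 1 higher.

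Markers separated the hairpins as well. With sh2, 9 of 10 rod markers were higher than with sh1, and the count was 4, 6 and 8 without replicate 1, 2 or 3 of sh1 and 6 without replicate 1 of sh2. Lower with sh2 were 5 of 10 RPE markers (*Lrat*, *Rlbp1*, *Rdh5*, *Otx2* and *Ttr*), a count kept when a library was left out, and all 6 endothelial markers (4 without replicate 1 or 2 of sh1, 5 without any other library of these groups). Macrophage markers had 4 of 6 higher (*Ptprc*, *C1qa*, *C1qb* and *Csf1r*), with 2, 1 and 3 without replicate 1, 2 or 3 of sh1, and 3 and 5 without replicate 1 or 3 of sh2. Of 5 blood markers, 3 were lower (*Hba-a1*, *Hba-a2* and *Alas2*), 5 without replicate 3 of sh1 and 4 without replicate 3 of sh2. Of 7 markers of myelin and Schwann cells, 3 were called lower, *Prx* and *Pmp22* among them, and 3 had log2 fold changes above 0. The count lower was 2 to 4 when a library was left out, the call of *Prx* being lost without replicate 1 or 2 of sh1 or replicate 2 or 3 of sh2. Of 6 fibroblast markers, 1 was called higher (*Lum*), with 2 of the 6 below 0 on the log2 scale. Muscle markers had 1 of 6 called higher (*Des*), with 3 of the 6 below 0. What these cells contribute to the differences in *Sqle*, *Hsd17b7* and *Fdft1* was not tested.

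The control vectors were compared with uninjected mice to ask what injection itself does to these genes. Between GFP and uninjected, edgeR called 0 of the 9 genes in either direction, beside 2.48% of 17837 genes tested, with 1 at an unadjusted p under 0.05 (beside 3529 of all genes tested) and 1 called by DESeq2. That gene was *Fdft1*, 19.8, 38.3 and 26.4 CPM in uninjected and 15.1, 18.3 and 15.7 CPM in GFP. All GFP libraries lay below all uninjected ones, whose spread was wide (log2 fold change -0.79, SE 0.21, adjusted P 0.0936). Without replicate 1 of uninjected, edgeR called *Fdft1* lower (adjusted P 0.0124), beside 591 of 18390 genes tested. Over the fits that left out a library, its log2 fold change ran from -0.99 to -0.50, with an adjusted P up to 0.263. Between ctrl sh and uninjected, edgeR called 0 of the 9 as well, beside 6.49% of 17822 genes tested, with 1 at an unadjusted p under 0.05 (beside 4572 of all genes tested) and 0 by DESeq2. That gene was *Cyp51*, at 28.3, 27.4 and 27.1 CPM in uninjected and 37.2, 34.0 and 33.8 CPM in ctrl sh, without overlap (log2 fold change 0.34, adjusted P 0.0628).

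Markers differed between the control vectors and uninjected mice. In GFP, 5 of 10 RPE markers were lower (*Lrat*, *Rpe65*, *Rlbp1*, *Rdh5* and *Ttr*), a count of 4 without replicate 2 or 3 of uninjected or replicate 1 of GFP and 3 without replicate 2 of GFP. Of 6 macrophage markers, 1 was called lower (*Csf1r*), with 2 above 0. Of 9 rod markers tested, 1 was called higher (*Nrl*), with 1 below 0. The call of *Csf1r* was lost without replicate 2 or 3 of uninjected or replicate 1 or 2 of GFP, and that of *Nrl* without any library of these groups but replicate 1 of GFP, whose omission gave 5 rod markers higher. Of the 10 RPE markers in ctrl sh, edgeR called 0 and DESeq2 called 1, *Rpe65*, with 5 at an unadjusted p under 0.05, and edgeR called 4 lower without replicate 1 of ctrl sh and 2 without replicate 1 of uninjected. Of 7 markers of myelin and Schwann cells, 3 were called higher in ctrl sh, *Mag* and *Mbp* among them, and 2 had log2 fold changes below 0. *Mbp* lost its call without replicate 3 of uninjected or replicate 2 of ctrl sh, and the count was 1 to 3 when a library was left out. Lower in ctrl sh were 2 of 6 macrophage markers (*Ptprc* and *Csf1r*) and 1 of 4 muscle markers tested (*Des*), while 2 of each list lay above 0. Each of these calls was lost in several fits that left out a library, among them those without replicate 2 or 3 of ctrl sh. The part of these cells in the sterol genes was not tested.

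Whether nSREBP2 and *Lrp2* hairpins differ in what they do to the sterol arm was tested as a difference of effects, each against its own control. For nSREBP2 and sh1, 9 of the 9 differences were above 0 at an adjusted P under 0.05 in edgeR, beside 5.06% of 19744 genes tested. Their median was 1.88 on the log2 scale, from 0.94 for *Sc5d* to 3.21 for *Hsd17b7*. For nSREBP2 and sh2, 9 of 9 were again above 0, beside 3.23% of the genes tested. The median was 1.91, from 1.19 for *Sc5d* to 2.71 for *Lss*. These differences draw on the same nSREBP2 and GFP libraries, and on the same ctrl sh libraries, so the results are not independent of each other. In these tests with sh1, all 6 macrophage markers and 3 of 6 fibroblast markers (1 to 6 without a library) were called above 0. Of 6 endothelial markers 2 were called below 0, and of 10 RPE markers 1 on each side. With sh2, 3 of 6 macrophage, 2 of 6 fibroblast, 3 of 10 RPE and 2 of 5 blood markers were called above 0. These counts were 2 to 5, 0 to 4, 2 to 3 and 0 to 3 without a library. Below 0 was 1 of 6 muscle markers. The part of these cells was not tested.

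In some groups, a single library stood at one end for most of the 9 genes. Replicate 1 of nSREBP2 was the highest of its group for 9 of 9, replicate 1 of ctrl sh for 9 of 9, and replicate 3 of sh2 for 8 of 9, while replicate 1 of uninjected was the lowest of its group for 8 of 9. GFP and sh1 were more mixed: replicate 1 of GFP was the lowest for 6, but replicate 3 of GFP was the highest for 4 and the lowest for 3, and replicate 3 of sh1 the highest for 4 and the lowest for 4. In sum, the 9 genes reached 174, 246 and 217 CPM in uninjected, 187, 211 and 201 CPM in GFP and 785, 639 and 649 CPM in nSREBP2. Across the hairpin groups the sums were 258, 227 and 214 CPM in ctrl sh, 205, 232 and 213 CPM in sh1 and 205, 195 and 242 CPM in sh2. Batches were not labelled, and what sets these libraries apart was not tested.

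After each gene's group mean was taken away, the remaining variation over the 18 libraries was scaled to its SD and averaged over the 9. This average was compared with the variation of 10267 genes at a mean of 10 CPM or more, the 9 and other pathway genes included. Outside the pathway lists, the highest Pearson correlations were those of *Tmem185b* (0.948), *Ctr9* (0.924), *Gm24336* (0.908), *Calm3* (0.908), *Clptm1* (0.904), *Echs1* (0.903), *Aplp2* (0.899) and *Gstm5* (0.896). These values describe the libraries only, since the 18 points share 6 group means and the depth of each library. Of these 8, *Aplp2* was the only gene called in nSREBP2 versus GFP, and in the opposite direction to the sterol arm (log2 fold change -0.27, adjusted P 0.0314).

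Promoter sequence was read for the 7 genes with a window in the reference, which left out *Fdft1* and *Sqle*. The 9 windows of RefSeq transcription starts on GRCm38.p6 (*Dhcr7* has 3) span 250 bases before to 50 bases after the start, and both strands were searched. SREBP binds sterol elements, often next to boxes for NF-Y and for Sp1, and binds E-boxes as well. A sterol element of the form T-C-A-C-N-C-C-A, N being any base, was present in the window of *Msmo1* alone and in 4.36% of all 32851 windows. The E-box C-A-C-G-T-G was found for *Dhcr7*, *Hsd17b7* and *Sc5d*, and in 7.15% of all windows. The NF-Y box C-C-A-A-T was found for all 7 genes, in 7 of the 9 windows and 37.4% of all windows, and the GC box G-G-G-C-G-G for all 7 genes, in 8 of the 9 windows and 35.7% of all. A match is a description of sequence and does not show binding.

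**Figure D4:**
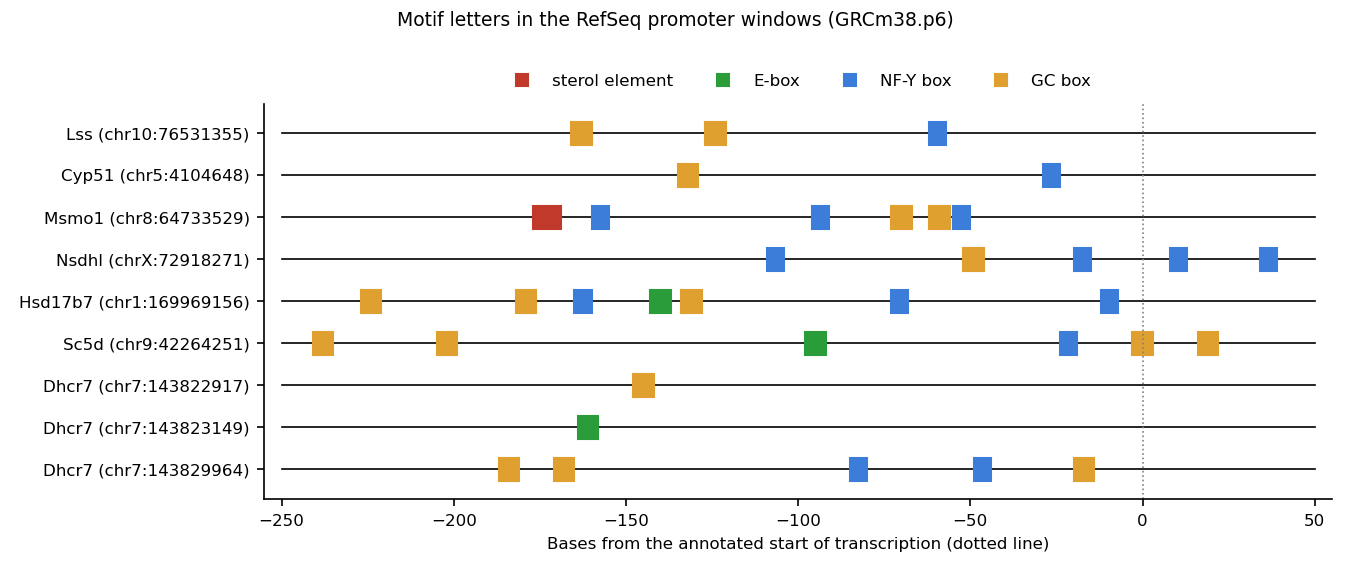
Matches to the motifs, as coloured marks by motif, along each promoter window, with the position from the transcription start in bases on the horizontal axis. The sterol element marks the window of *Msmo1* and no other.

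The window of *Msmo1* (chromosome 8, minus strand, chr8:64733529-64733828) holds its sterol element 177 bases before the start, with NF-Y boxes and GC boxes nearer to it. Motifs are in capitals.

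Msmo1: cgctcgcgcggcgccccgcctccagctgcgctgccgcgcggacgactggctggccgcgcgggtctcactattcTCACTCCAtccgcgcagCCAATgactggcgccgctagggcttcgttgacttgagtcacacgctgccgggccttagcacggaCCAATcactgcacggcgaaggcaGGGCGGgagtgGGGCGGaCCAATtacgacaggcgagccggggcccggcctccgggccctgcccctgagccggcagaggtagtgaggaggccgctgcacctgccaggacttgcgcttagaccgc

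The window of *Hsd17b7*, the gene with the largest rise under nSREBP2 (chr1:169969156-169969455, minus strand), holds an E-box, 3 NF-Y boxes and 3 GC boxes.

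Hsd17b7: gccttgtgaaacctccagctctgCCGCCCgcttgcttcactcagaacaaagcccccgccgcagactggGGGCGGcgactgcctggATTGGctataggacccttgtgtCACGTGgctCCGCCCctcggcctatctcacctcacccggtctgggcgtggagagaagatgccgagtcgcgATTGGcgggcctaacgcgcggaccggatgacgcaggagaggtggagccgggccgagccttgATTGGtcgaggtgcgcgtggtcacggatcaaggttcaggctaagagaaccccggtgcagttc

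That of *Sc5d*, the gene with the smallest rise (chr9:42264251-42264550, minus strand), holds an E-box, 1 NF-Y box and 4 GC boxes.

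Sc5d: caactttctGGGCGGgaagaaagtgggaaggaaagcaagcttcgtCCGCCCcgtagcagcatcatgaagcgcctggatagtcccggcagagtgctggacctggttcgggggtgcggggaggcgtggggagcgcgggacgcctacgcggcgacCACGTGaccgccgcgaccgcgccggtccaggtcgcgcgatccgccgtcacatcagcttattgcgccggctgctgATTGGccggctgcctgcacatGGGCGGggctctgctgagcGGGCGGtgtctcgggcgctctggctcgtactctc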

How the data were processed

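Counts per gene of 18 RNA-seq libraries of RPE were used, each from both eyes of 1 mouse, 3 per group. Per the labels, the retina and optic nerve were removed, RPE was dissociated with papain, ribosomal RNA was depleted, directional libraries were made, and the authors mapped reads to GRCm38 with STAR and deposited raw counts, not normalized. Neither annotation nor strandedness of the counting is stated. Groups were taken from the labels, where ctrl sh is named for LacZ, and sex from Y-linked genes.

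Of 52636 genes in the table, 49121 IDs were found in GENCODE M21, which gave exon lengths and overlaps. Depth was 8921885 to 13696934 counts, so that 3 counts are 0.219 to 0.336 CPM. CPM used TMM factors over all 18 libraries. For each comparison, its 6 libraries were fitted by quasi-likelihood in edgeR 4.0.16 under R 4.3.3 (glmQLFit and glmQLFTest, after filterByExpr and TMM), and the differences of effects on all 18. P values were adjusted by Benjamini-Hochberg over all genes tested, and a gene was called at an adjusted P under 0.05. Intervals are 95%. The fits were tested on simulated data first. Tables were made in Python 3.11.15 with pandas 2.3.3 and numpy 2.4.6.

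Other settings were tried: DESeq2 1.42.0, edgeR scaled by DESeq2 size factors, a filter turned off or raised to 10 counts in each library, a joint fit of the 18 libraries with and without a sex term, a block for replicate number, uninjected mice as the control group, a limit of 1 on the size of the log2 fold change, and omission of each library in turn. The 9 genes, the other lists (rest of the sterol arm, mevalonate arm, regulators of SREBP and uptake, other users of farnesyl diphosphate) and the markers of cell types were chosen with earlier results of these data known. Genes named were the 9, any gene of the sterol arm, mevalonate arm or regulator lists, and the 8 genes outside the pathway lists, at a mean of 10 CPM or more, that followed the 9 most closely within groups by Pearson correlation of log2(CPM + 1). *Lrp2*, *Ggps1* and marker genes fall outside this rule and were named after their values were seen. Some genes of these lists are not reported here. No library was left out of the reported fits.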

Additional observations from a re-analysis of the deposited data

Results flagged for a closer look

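The effects of nSREBP2 and of the *Lrp2* hairpins, each against its own control, differed by a test of the difference for all 9 genes. For nSREBP2 and sh1, the log2 differences were 1.82 for *Fdft1*, 1.94 for *Sqle*, 2.33 for *Lss*, 2.23 for *Cyp51*, 1.63 for *Msmo1*, 1.88 for *Nsdhl*, 3.21 for *Hsd17b7*, 0.94 for *Sc5d* and 1.60 for *Dhcr7*. With sh2 in place of sh1, they were 2.36 for *Fdft1*, 1.26 for *Sqle*, 2.71 for *Lss*, 2.12 for *Cyp51*, 1.91 for *Msmo1*, 1.85 for *Nsdhl*, 2.55 for *Hsd17b7*, 1.19 for *Sc5d* and 1.78 for *Dhcr7*. The highest edgeR adjusted P of these 18 tests was 0.000674, for *Sc5d* with sh1.

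The hairpins differed from each other for 3 genes in edgeR, beside 10.2% of all genes tested called higher and 12.3% called lower: sh2 against sh1 gave log2 fold changes of 0.70 for *Sqle* (adjusted P 0.000875), 0.66 for *Hsd17b7* (adjusted P 0.00390) and -0.53 for *Fdft1* (adjusted P 0.0227). The call of *Fdft1* was lost without replicate 2 or 3 of sh1 (adjusted P 0.0955 and 0.0521) or replicate 1 or 2 of sh2 (adjusted P 0.0697 and 0.0782). It was also lost in the fits of all 18 libraries, without a sex term (adjusted P 0.0601) and with one (0.137), and sh2 was the only hairpin group with males. Why the hairpins differ was not tested.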

How the results depend on the processing

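In nSREBP2 versus GFP, 9 of 9 genes were called under every alternative run. In both differences of effects, 9 of 9 were called in the alternatives run for them: DESeq2, a replicate block, a sex term and omission of each library. A limit of 1 was not applied to the differences, and that of *Sc5d* with sh1 was 0.94. The comparison of ctrl sh with uninjected had 0 in edgeR and in DESeq2, with 1 at an unadjusted p under 0.05. The other counts moved. For sh1 against ctrl sh, 2 became 1 with all 18 libraries in one fit and 1 with a sex term, and leaving out a library gave 0 to 2. Beside these, the genes called lower were 405 of 17801 as reported, and of 19744 they were 277 and 284. Leaving out a library gave 136 to 582 of them. Against uninjected mice the count for sh1 stayed at 2 with a change of gene: *Sqle* was lost (adjusted P 0.0639) and *Sc5d* was called higher (log2 fold change 0.44, adjusted P 0.0444). For sh2 against ctrl sh, 1 became 2 by DESeq2, 3 with no filter and 0 against uninjected mice, and omitting a library gave 0 to 3. Genes called lower were 1714 of 18089 as reported, 1557 of 20554 by DESeq2 and 1924 of 33580 with no filter. Against uninjected mice they were 2076 of 18223, and omitting a library gave 1122 to 1508. For GFP against uninjected, 0 became 1 by DESeq2, 1 with no filter, 1 with all 18 libraries and 1 with a sex term, and leaving out a library gave 0 to 1. Over all genes, 118 were higher and 324 lower of 17837 as reported, and 251 and 590 of 17772 by DESeq2. With no filter they were 299 and 794 of 33308. Of 19744 genes, 757 and 965 were called with all 18 libraries, and 538 and 687 with a sex term. Without replicate 1 of uninjected, which gave the 1, they were 149 and 591 of 18390. For sh2 against sh1, 3 became 2 with all 18 libraries and 2 with a sex term, as *Fdft1* was lost, and leaving out a library gave 2 to 5 (5 without replicate 3 of sh2). All genes called higher and lower were 1825 and 2204 of 17975 as reported, and 1748 and 1957 of 18541 without replicate 3 of sh2. Of 19744 genes, they were 1674 and 2050 with all 18 libraries and 1289 and 1492 with a sex term. A block for replicate number gave 0 for either hairpin against ctrl sh. Replicate numbers are not said to pair mice, and correlations within numbers ran from -0.261 to 0.315. With that block, 202 of 17801 genes were called lower for sh1 and 1389 of 18089 for sh2. With the limit of 1 on the log2 fold change, both hairpin counts and that of sh2 against sh1 were 0. Gene by gene, 692 alternative results kept their side of the threshold, 13 newly passed it and 24 no longer passed it. Among the 9, no called gene changed sign, but genes that passed in neither fit did in places, such as *Cyp51* with sh1 (-0.13 against ctrl sh, 0.22 against uninjected mice). Outside the 9, called genes could change sign, such as *Mbtps2* with sh2, which was called lower against ctrl sh and was 0.05 against uninjected mice. The cause was not tested. At the lowest depth, 8921885 counts, a gene at 0.336 CPM has 3 counts.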
